A study of Homo sapiens with 24 samples.

Results

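The genes described here are the DNA replication and G1/S genes, a list of 39 genes chosen by name. They were found in the count table by matching its Ensembl identifiers to GENCODE symbols, and 38 of the 39 had a row among the 57736 genes of the table. UHRF1 was not analysed here, because the annotated identifier of that symbol had no row. All 38 genes passed the filter on low counts in both series. The list was split by role into licensing factors (ORC1, ORC6, CDC6, CDT1, GMNN), the replicative helicase (MCM2 to MCM7), helicase activation (MCM10, CDC45, GINS1 to GINS4), polymerases and primase (POLA1, POLA2, PRIM1, POLE, POLE2, POLD1), the sliding clamp and its loader (PCNA, RFC2 to RFC5), Okazaki fragment processing (FEN1, LIG1), nucleotide supply (RRM1, RRM2, TYMS, TK1) and G1/S regulators (CCNE1, CCNE2, E2F1, E2F2).

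The cells were U87-T, a glioblastoma line that carries a TERT transgene. Each of 2 experiments, the DAXX series and the ATRX series, compared WT cells (U87-T sgCon, with Cas9 and no targeting of DAXX or ATRX) with 1 knockout line, DAXX_KO or ATRX_KO, untreated (control) or treated with etoposide, a topoisomerase II poison that causes DNA breaks. There were 3 libraries in each of the 8 groups, 24 libraries in all, and no dose or duration of etoposide is given for these libraries in the sources used here. The knockout lines were single clones isolated after long passage and had features of ALT (telomere maintenance without telomerase), so the deletion cannot be told apart from what else the clone carries. The study describes its experiments as replicated biologically. Whether the 3 libraries of a group came from separate cultures is not stated for these libraries, and p-values measure the spread between them.

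Before the chromosomes are copied, cells in G1 load the MCM2 to MCM7 helicase onto origins. ORC, CDC6 and CDT1 do the loading, and geminin (GMNN) inhibits CDT1. At the start of S phase CDC45 and the GINS complex join the helicase, and polymerases, the PCNA clamp, its loader RFC and the nucleotide enzymes follow. Most of these genes are transcribed around the G1/S transition under E2F factors, which are held in check by RB, and CDKN1A (p21), a target of p53, keeps RB active by inhibiting cyclin-dependent kinases. RNA from a bulk culture cannot tell fewer cells in S phase from less RNA per cell. By flow cytometry, the paper reported more cells in G1 and fewer in S or G2 in both knockouts than in untreated control cells. After etoposide it reported that the S-phase share rose in the knockouts, compared with control cells. The part of these cell fractions in the RNA values was not tested.

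The assay counted 3′ ends of polyadenylated RNA. Libraries held between 6928950 and 13298557 counts, and values are given as CPM, a gene's counts relative to the TMM-scaled total of its library, with the scaling fitted within each series, so levels are not compared across the 2 series. DAXX, the gene deleted in DAXX_KO, was at 35.3, 33.5 and 32.9 CPM in the 3 WT control libraries and at 6.25, 4.62 and 6.62 CPM in the DAXX_KO control libraries. The gene deleted in ATRX_KO, ATRX, was at 187, 193 and 196 CPM in WT control and at 87.5, 78.1 and 76.1 CPM in ATRX_KO control. The genotype field of the DAXX_KO libraries names ATRX, whereas their titles name DAXX, and the titles were followed. Of 3 genes in the region that U87 cells lack, CDKN2A and CDKN2B reached at most 0.783 and 0.0925 CPM, and MTAP was at 0.389 to 2.91 CPM. Of 11 markers of other cell types, MBP reached 22.7 and SYT1 36.3 CPM, the summed level of the 11 was 41.2 to 61.0 CPM in 6 of the 8 groups, and it was 23.1 to 24.4 CPM in ATRX_KO control and 19.2 to 24.3 CPM in ATRX_KO with etoposide. The summed level of 8 genes that U87 cells express was 7537 to 8221 CPM in WT control, 5080 to 6864 CPM in the knockouts in control and 2991 to 3997 CPM with etoposide. The part of these 2 sums in the results was not tested.

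The promoters of 34 of the 38 genes were in the RefSeq table of GRCh38.p14, as windows of 250 bases before to 50 bases after each start. An E2F-type word of 8 bases (TTTGGCGC, TTTCCCGC, TTTCGCGC or TTTGCCGC, on either strand, overlapping matches counted) was found for 20 of the 34 (58.8%), against 3.99% of all 27305 genes with a window and 6.37% of the 11306 of them that were tested in these data. The CCAAT word, on either strand, was found for 20 of 34 (58.8%), against 39.7% of all and 43.2% of those tested in these data. Below are the 200 bases before 1 start of each of 6 genes on which results below turn. E2F-type words and CCAAT (or its reverse ATTGG) are in capitals, printed 5′ to 3′ on the gene's strand. Where a gene had more than 1 window, the window with the most E2F-type words, then CCAAT words, was printed. MCM7, PCNA and TK1 had more than 1, and their other windows held no E2F-type word. MCM3, MCM6 and MCM7 encode subunits of 1 ring, PCNA and E2F1 responded in opposite ways to etoposide in DAXX_KO, and TK1 was higher with etoposide in WT.
MCM3: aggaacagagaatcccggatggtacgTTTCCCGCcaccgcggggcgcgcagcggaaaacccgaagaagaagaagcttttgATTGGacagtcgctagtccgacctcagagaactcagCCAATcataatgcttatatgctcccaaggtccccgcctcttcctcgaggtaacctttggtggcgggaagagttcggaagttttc
MCM6: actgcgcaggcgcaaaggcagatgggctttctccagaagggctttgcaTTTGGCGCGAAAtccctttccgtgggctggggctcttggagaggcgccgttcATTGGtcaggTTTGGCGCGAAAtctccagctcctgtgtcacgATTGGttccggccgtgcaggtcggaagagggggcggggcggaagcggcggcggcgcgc
MCM7: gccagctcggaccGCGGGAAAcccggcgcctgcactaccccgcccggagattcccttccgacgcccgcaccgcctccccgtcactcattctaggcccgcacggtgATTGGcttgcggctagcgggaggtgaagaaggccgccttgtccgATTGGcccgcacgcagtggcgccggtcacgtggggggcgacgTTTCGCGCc
PCNA: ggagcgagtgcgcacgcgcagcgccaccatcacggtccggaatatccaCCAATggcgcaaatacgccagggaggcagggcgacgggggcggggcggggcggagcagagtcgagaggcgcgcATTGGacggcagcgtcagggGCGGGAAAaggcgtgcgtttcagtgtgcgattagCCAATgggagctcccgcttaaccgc
E2F1: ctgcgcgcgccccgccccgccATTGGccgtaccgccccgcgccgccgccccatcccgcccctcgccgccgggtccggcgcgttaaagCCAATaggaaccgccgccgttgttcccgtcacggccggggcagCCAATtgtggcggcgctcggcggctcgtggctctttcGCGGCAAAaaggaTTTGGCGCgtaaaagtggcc
TK1: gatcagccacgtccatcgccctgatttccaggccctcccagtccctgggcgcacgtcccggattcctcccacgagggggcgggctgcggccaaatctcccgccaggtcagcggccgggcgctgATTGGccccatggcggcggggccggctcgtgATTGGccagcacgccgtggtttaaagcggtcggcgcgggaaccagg
Each was placed in GRCh37, the build of the count table, by an exact and single match: MCM3 at chr6:52149541-52149740, MCM6 at chr2:136634014-136634213, MCM7 at chr7:99699021-99699220, PCNA at chr20:5107269-5107468, E2F1 at chr20:32274192-32274391 and TK1 at chr17:76183134-76183333, all on the minus strand. The MCM6 stretch holds 4 E2F-type matches in 2 places, because TTTGGCGC and the reverse of TTTCGCGC share bases there. In MCM3, 1 word lies inside the stretch and 1 more crosses the start. MCM7 and E2F1 hold 2 words each, PCNA holds 1 and TK1 holds none in this window. A match is a description of letters and not of a bound site.

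In control cells, most of these genes were lower in DAXX_KO than in WT. Of the 38 genes, 28 were lower, 3 were higher and 7 did not pass the test, whereas 26.6% of all genes tested were called lower and 26.7% higher. A gene was called where the adjusted p of edgeR's quasi-likelihood test, taken over all genes tested, was under 0.05. The median log2 fold change of the 38 was -0.47, against 0.016 over all 15247 genes. With scaling by library totals alone 21 were lower and 5 higher, the median of the 38 was -0.28 and that of all genes 0.20.

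Licensing factors, the loading machinery of the helicase, were lower in DAXX_KO for 5 of 5 genes. CDC6, the loader of MCM2 to MCM7, was at 104, 101 and 93.8 CPM in WT and 40.98, 37.3 and 36.3 CPM in DAXX_KO. The log2 fold change of CDC6 was -1.38 ± 0.087 (SE), with edgeR adjusted p = 1.29e-10. ORC1, the largest subunit of the origin recognition complex, was at 23.8, 23.8 and 24.5 CPM in WT and 11.1, 8.84 and 7.94 CPM in DAXX_KO, a log2 fold change of -1.37 ± 0.14 (edgeR adjusted p = 1.50e-07). Both genes had WT and knockout libraries that did not overlap. ORC6, CDT1 and GMNN had log2 fold changes of -0.69, -0.77 and -0.30.

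Among the subunits of the helicase and its partners, the falls were unequal. GINS4, 1 of the 4 subunits of GINS, had the lowest value of the list, at 116, 110.1 and 104 CPM in WT and 42.2, 39.98 and 38.03 CPM in DAXX_KO. Its log2 fold change was -1.46 ± 0.076 (SE), with edgeR adjusted p = 8.11e-12, and every knockout library lay below every WT library. MCM5 had a log2 fold change of -1.16 ± 0.091, MCM2, MCM3, MCM4 and MCM6 were lower with values from -0.73 to -0.35, and MCM7 did not pass the test (-0.10, 95% confidence interval -0.23 to 0.035). The partner subunits of GINS4 were also lower, GINS2 at -0.93, GINS1 at -0.42 and GINS3 at -0.39, and so was CDC45 at -0.62.

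The remaining roles held both directions. PCNA and all 4 RFC genes were lower, from -0.79 for RFC3 to -0.30 for PCNA. RRM2, the regulated subunit of ribonucleotide reductase, had a log2 fold change of -1.26 ± 0.060 and TK1, the thymidine kinase of S phase, of -0.997 ± 0.094. POLE, the catalytic subunit of polymerase epsilon, was higher, at 32.6, 30.9 and 29.9 CPM in WT and 37.2, 38.1 and 43.7 CPM in DAXX_KO (0.35 ± 0.10, edgeR adjusted p = 0.00651). E2F1, an activator of the G1/S genes, was at 75.3, 70.9 and 70.1 CPM in WT and 96.6, 106 and 112 CPM in DAXX_KO (0.54 ± 0.079, edgeR adjusted p = 9.48e-06). LIG1, the ligase that seals Okazaki fragments, was the third gene called higher, at 0.32. For POLE and E2F1 the knockout libraries all lay above the WT libraries.

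In ATRX_KO control cells, 22 of the 38 genes were lower than in WT, 2 were higher and 14 did not pass the test, against 21.0% lower and 20.8% higher of all genes tested. The median of the 38 was -0.37, against 0.019 over all 16371 genes. With scaling by library totals alone 19 were lower and 5 higher. GINS4 again had the lowest value, at 116, 127 and 112 CPM in WT and 41.4, 36.6 and 39.5 CPM in ATRX_KO (-1.59 ± 0.081, edgeR adjusted p = 1.40e-10). CDC45, which joins the helicase with GINS, was at 53.5, 47.6 and 44.1 CPM in WT and 20.3, 20.9 and 22.4 CPM in ATRX_KO (-1.19 ± 0.12, edgeR adjusted p = 5.45e-07). In these pairs no knockout library reached the WT range.

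MCM5 was the only helicase subunit with a log2 fold change below -1 in ATRX_KO, at 163, 189 and 209.8 CPM in WT and 99.2, 88.2 and 83.5 CPM in the knockout (-1.05 ± 0.091, edgeR adjusted p = 8.82e-08). MCM4 and MCM6 were also lower, at -0.27 and -0.41, whereas MCM2, MCM3 and MCM7 had values of -0.068, 0.054 and -0.028 and did not pass the test. All 5 licensing factors were lower, from -0.62 for CDT1 to -0.35 for CDC6. Of the 5 clamp and loader genes, 2 were lower (PCNA and RFC3), and FEN1 and LIG1 did not pass the test.

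Cyclin E1 and 1 GINS subunit rose in ATRX_KO. CCNE1, the cyclin that drives entry into S phase, was at 12.3, 13.7 and 12.4 CPM in WT and 25.2, 21.7 and 19.5 CPM in ATRX_KO (0.79 ± 0.15, edgeR adjusted p = 5.13e-04). GINS3 was at 11.7, 12.4 and 9.65 CPM in WT and 18.1, 19.8 and 18.99 CPM in ATRX_KO (0.75 ± 0.15, edgeR adjusted p = 5.92e-04). Neither pair of groups overlapped.

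**Figure D1:**
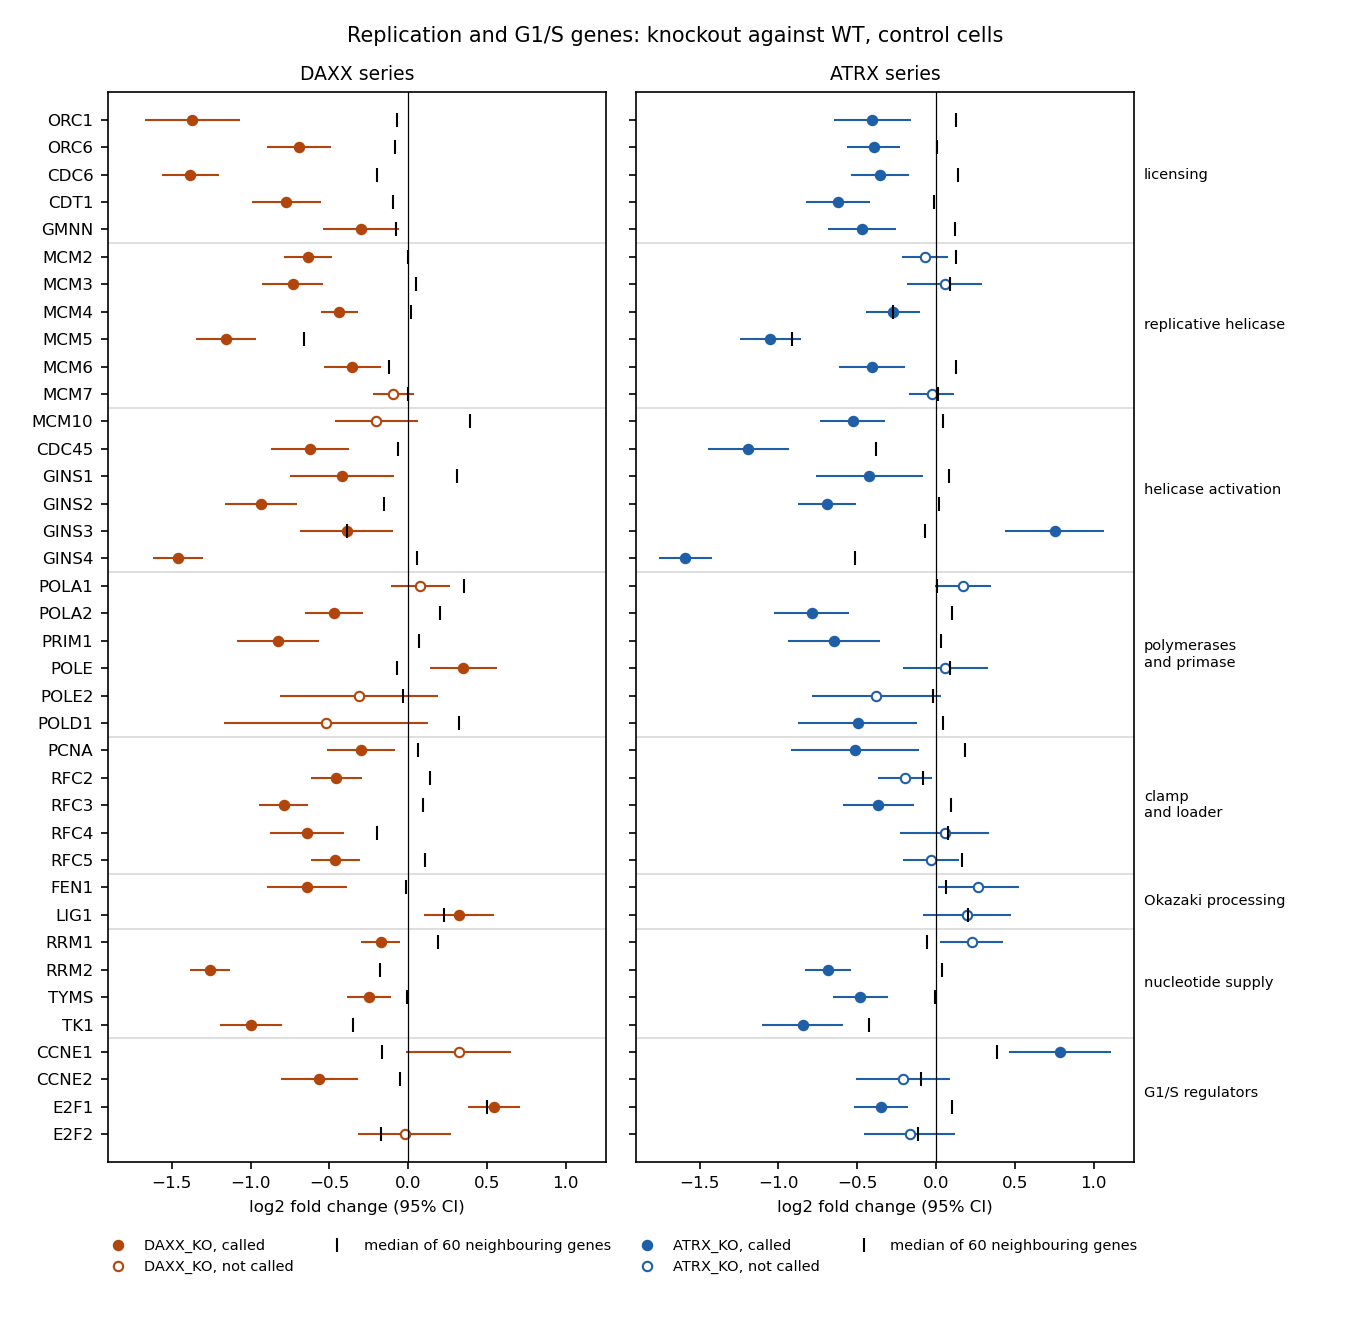
Log2 fold change of each gene between knockout and WT in control cells, with 95% confidence intervals, for DAXX_KO (left) and ATRX_KO (right). Filled points passed an adjusted p of 0.05 and open points did not. The black ticks give the median over 60 neighbouring genes on the chromosome, or fewer near a chromosome end (POLE and TYMS). Most points lie left of 0 in both panels, 28 genes are called lower on the left and 22 on the right. Of all genes tested, 26.6% were called lower on the left and 21.0% on the right.

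Between the lines, 19 genes were called lower in both, which is 67.9% of those lower in DAXX_KO and 86.4% of those lower in ATRX_KO. Of all genes tested in both series 12.7% were lower in both knockouts, which is 47.0% and 57.0% of the genes lower in each. The series have separate WT libraries but share the parental line. A direct test of the difference between the 2 knockout effects, fitted over all 24 libraries, called 11 of the 38 genes lower and 2 higher in DAXX_KO than in ATRX_KO, against 17.2% lower and 17.0% higher of all genes tested (9 and 5 with library totals alone). CDC6 and ORC1 were among the 11, with differences of -1.02 ± 0.12 and -0.96 ± 0.18 on the log2 scale. FEN1 (-0.91), MCM3 (-0.78) and RFC4 (-0.69) were others, and each of them was lower in DAXX_KO and not called in ATRX_KO. CDC45 (0.57) and E2F1 (0.89) were the 2 called higher. GINS4 and MCM5 gave differences of 0.13 (95% confidence interval -0.08 to 0.35) and -0.10 (-0.37 to 0.17), which did not pass the test.

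For a pair of genes the 2 knockouts were called in opposite directions against their own WT, and the direct test also called the difference. E2F1 was higher in DAXX_KO and lower in ATRX_KO, where it was at 104, 108 and 114 CPM in WT and 88.4, 85.5 and 81.6 CPM in the knockout. GINS3 was lower in DAXX_KO, at 12.7, 16.00 and 12.01 CPM in WT and 11.5, 9.90 and 9.63 CPM in the knockout, and higher in ATRX_KO. The difference was 0.89 ± 0.11 for E2F1 (edgeR adjusted p = 4.72e-07) and -1.14 ± 0.20 for GINS3 (edgeR adjusted p = 6.76e-05). The WT control libraries of the 2 series differed for 6 of the 38 genes, all lower in the DAXX series, against 7.22% lower and 6.01% higher of all genes tested. Among them were E2F1 (-0.55), POLA2 (-0.54) and TK1 (-0.41).

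Genes next to some of these genes on the chromosome moved with them. The median log2 fold change of the 60 tested genes nearest to MCM5 (30 on each side) was -0.66 in DAXX_KO and -0.91 in ATRX_KO, where MCM5 itself was at -1.16 and -1.05. For TK1 the neighbours were at -0.35 and -0.42. E2F1 in DAXX_KO lay close to its neighbours, at 0.54 against 0.50, and so did GINS3 in DAXX_KO (-0.39 against -0.39) and MCM4 in ATRX_KO (-0.27 against -0.27). CCNE1 in ATRX_KO was at 0.79 and its neighbours at 0.39. GINS4 lay below its neighbours in both lines (0.058 in DAXX_KO and -0.52 in ATRX_KO), as did CDC6 (-0.20 and 0.14) and RRM2 (-0.18 and 0.038). The part of the neighbourhood in these values was not tested.

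Some calls in control cells were lost when 1 library was left out. In DAXX_KO, GINS1 and GMNN were no longer called without WT replicate 1 or 3 or without any 1 knockout replicate (adjusted p up to 0.102 and 0.144 by edgeR), GINS3 without WT replicate 2 or knockout replicate 2 or 3 (up to 0.162), RRM1 without WT replicate 2 or 3 or knockout replicate 3 (up to 0.102), PCNA without WT or knockout replicate 1 (up to 0.156) and LIG1 without WT replicate 2 (0.0519). In ATRX_KO the calls of GINS1, PCNA and POLD1 were lost in this way (edgeR adjusted p up to 0.118, 0.171 and 0.155), GINS1 without any 1 of the 6 control libraries or WT etoposide replicate 1, PCNA without any of 9 of the 12 libraries (without knockout control replicate 3 its value was -0.78), and POLD1 without WT control replicate 2 or 3 or knockout control replicate 2.

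**Figure D2:**
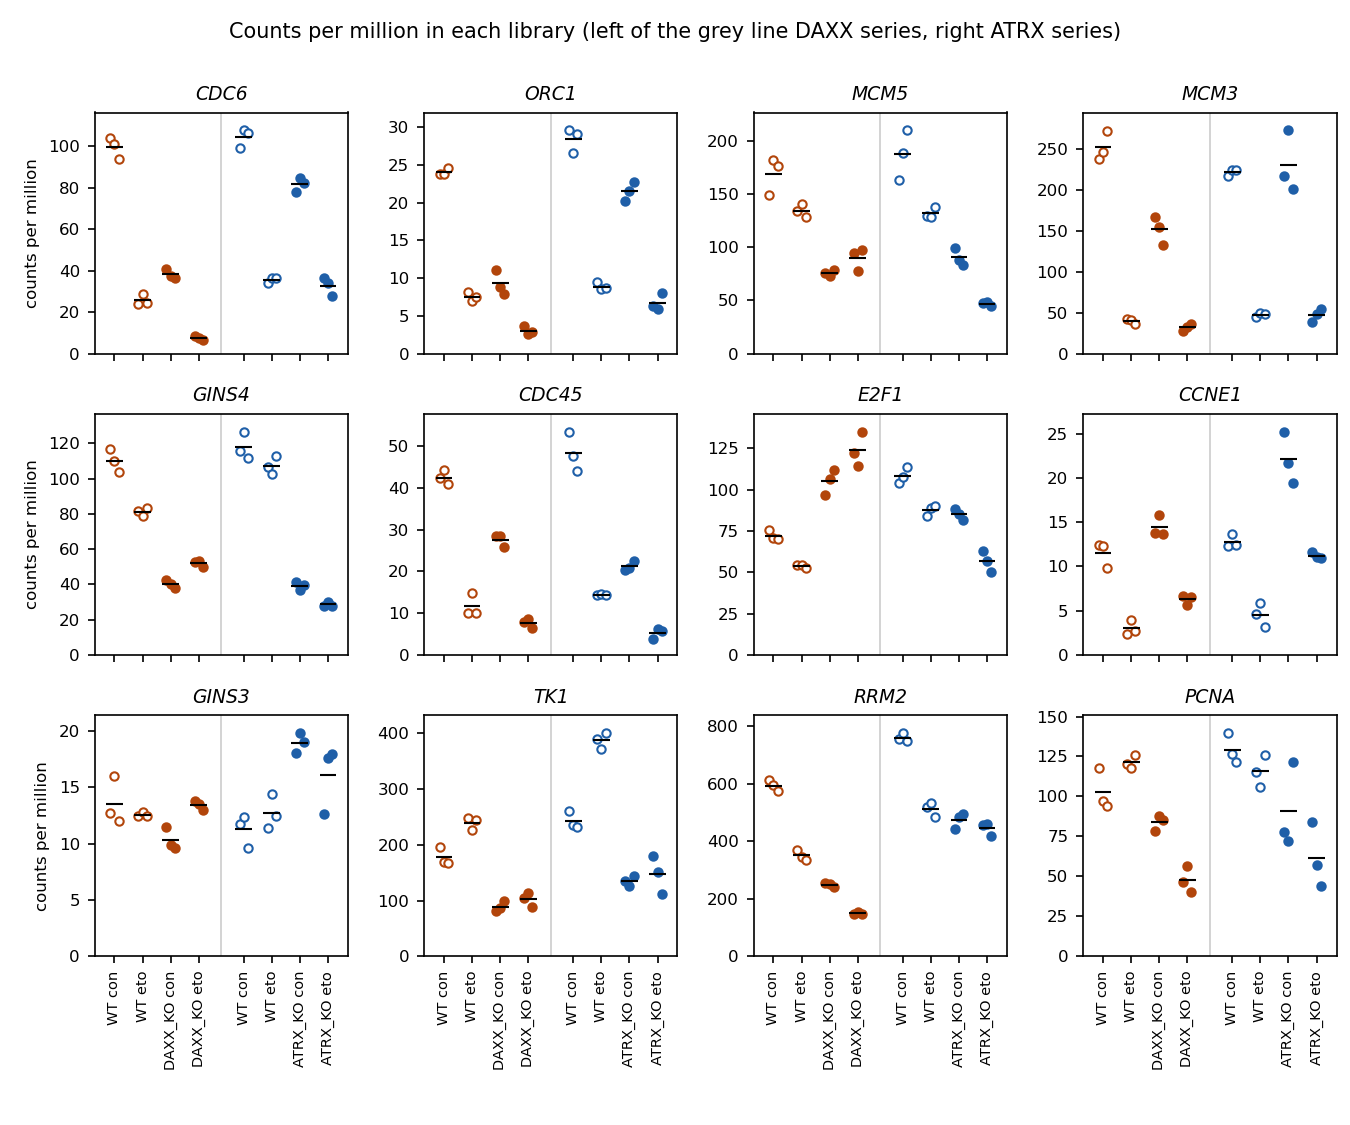
CPM of 12 genes in each of the 24 libraries, with linear axes from 0. Orange points are the DAXX series and blue points the ATRX series, open for WT and filled for the knockout, the bars are group means over 3 libraries, and con and eto stand for control and etoposide. CDC6 and RRM2 are lower in both knockouts before treatment, MCM3 falls with etoposide in all 4 pairs of groups, and E2F1 rises with etoposide in DAXX_KO.

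Etoposide lowered most of these genes in WT cells. In the DAXX series 34 of 38 genes were lower, 2 were higher and 2 did not pass the test, against 30.6% lower and 29.6% higher of all genes tested. In the ATRX series 31 were lower, 1 was higher and 6 did not pass the test, against 29.8% and 31.7%. The medians of the 38 were -1.61 and -1.28, and those of all genes tested were 0.023 and 0.068. All 31 genes lower in WT of the ATRX series were also lower in WT of the DAXX series. Of all genes tested in both series 26.8% were lower in both, which is 83.8% of those lower in WT of the ATRX series. CDKN1A rose from 150.4, 156 and 139.8 CPM in WT control to 5735, 5644 and 5484 CPM with etoposide in the DAXX series, and MDM2, another p53 target, had log2 fold changes of 4.05 and 4.20 in the 2 series.

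By role, the licensing factors had medians of -1.95 and -1.68 in WT of the DAXX and ATRX series, helicase activation -1.43 and -1.33, and the clamp and its loader -1.31 and -0.96. The lowest single values in both series were those of RFC4, FEN1 and MCM10. RFC4, a subunit of the clamp loader, fell from 37.1, 30.2 and 35.2 CPM to 3.76, 2.98 and 3.38 CPM in the DAXX series (-3.34 ± 0.15, edgeR adjusted p = 2.31e-13) and from 30.95, 37.9 and 36.8 CPM to 6.84, 7.07 and 4.62 CPM in the ATRX series (-2.50 ± 0.16, edgeR adjusted p = 6.14e-10). FEN1, the nuclease that trims Okazaki fragments, fell from 161, 160.4 and 180.1 CPM to 18.7, 20.5 and 20.4 CPM in the DAXX series (-3.07 ± 0.14) and from 149.7, 139 and 139 CPM to 23.2, 21.7 and 22.9 CPM in the ATRX series (-2.65 ± 0.14). MCM10, which helps CDC45 and GINS start the fork, fell from 41.1, 40.8 and 46.97 CPM to 4.89, 5.95 and 5.27 CPM in the DAXX series (-2.99 ± 0.16) and from 46.04, 43.8 and 49.1 CPM to 8.14, 7.17 and 8.13 CPM in the ATRX series (-2.57 ± 0.11). Treated and control libraries of these 3 genes did not overlap in either series.

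The MCM2 to MCM7 ring showed a wide spread of responses. MCM3 and MCM6 had log2 fold changes of -2.65 ± 0.10 and -2.31 ± 0.10 in WT of the DAXX series, against -2.22 ± 0.12 and -2.23 ± 0.11 in WT of the other. MCM4 was at -1.58 and -1.49, and MCM2 at -1.28 and -0.89. MCM5 and MCM7 moved least, MCM5 at -0.33 and -0.50 and MCM7 at -0.19 and 0.025. Of the 2 MCM7 values only that of the DAXX series was called, and not without WT control replicate 2 or WT etoposide replicate 3 (edgeR adjusted p up to 0.0611). The stretches printed above hold E2F-type words for MCM3, MCM6 and MCM7, for MCM7 in the printed window only. Among the 34 genes with a window, the 20 with such a word had a median of -1.46 (DAXX series) and -1.10 (ATRX series). The 14 without one had -1.77 and -1.38. Any part of these words in the responses was not tested.

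TK1 moved against the list. It went from 197, 169 and 167 CPM to 247, 227 and 245 CPM in WT of the DAXX series (0.43 ± 0.090, edgeR adjusted p = 3.73e-04) and from 261, 235 and 232 CPM to 390.5, 371 and 401 CPM in WT of the ATRX series (0.67 ± 0.12, edgeR adjusted p = 1.16e-04). LIG1 was the other gene called higher, in WT of the DAXX series, where it went from 17.6, 16.7 and 17.8 CPM to 23.97, 21.8 and 20.5 CPM (0.35 ± 0.11, edgeR adjusted p = 0.00801), and the call was lost without WT etoposide replicate 1 (adjusted p 0.0545 by edgeR). In the ATRX series LIG1 was at 19.7, 18.8 and 24.8 CPM and 18.7, 20.3 and 24.7 CPM, with overlapping groups (0.0076). PCNA, which p53 can also induce, was not called in either series (0.24, 95% confidence interval 0.024 to 0.45, and -0.16, -0.57 to 0.24). Of the nucleotide enzymes, RRM1 had log2 fold changes of -2.24 and -2.18, and RRM2 of -0.76 and -0.57.

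In the knockout lines, too, most of the list was lower with etoposide. In DAXX_KO 30 genes were lower and 4 higher, against 27.8% and 26.8% of all genes tested, and in ATRX_KO 35 were lower and the other 3 did not pass the test, against 25.2% lower and 24.3% higher. The medians were -1.25 and -1.15. In all 4 comparisons with etoposide 27 genes were lower, against 18.6% of all genes tested in both series. The 4 genes higher in DAXX_KO were E2F1 (0.24), GINS3 (0.38), GINS4 (0.38) and MCM5 (0.24). With library totals alone only GINS4 was called higher, and with DESeq2 MCM7 and TK1 were called higher as well, 6 in all. Leaving out single libraries, E2F1 was not called without knockout control replicate 1 or etoposide replicate 3 (edgeR adjusted p up to 0.0760), GINS3 not without control replicate 2 or 3 or etoposide replicate 1 or 2 (up to 0.0962) and MCM5 not without control replicate 1 or 2 or etoposide replicate 1 or 3 (up to 0.135). In ATRX_KO the lower call of PCNA was lost without knockout control replicate 3 or etoposide replicate 2 or 3 (edgeR adjusted p up to 0.181), and that of POLE without control replicate 2 or 3 or etoposide replicate 2 or 3 (up to 0.135). Without knockout etoposide replicate 1 the values of PCNA and POLE were -0.85 and -0.55, against -0.56 and -0.36. The share of counts taken by 1 non-coding RNA, BCYRN1, moved with treatment, from 4.82 to 7.12% in WT control of the DAXX series to 11.6 to 12.1% with etoposide and from 3.08 to 4.20% to 4.36 to 5.11% in ATRX_KO, and its part in these values was not tested.

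**Figure D3:**
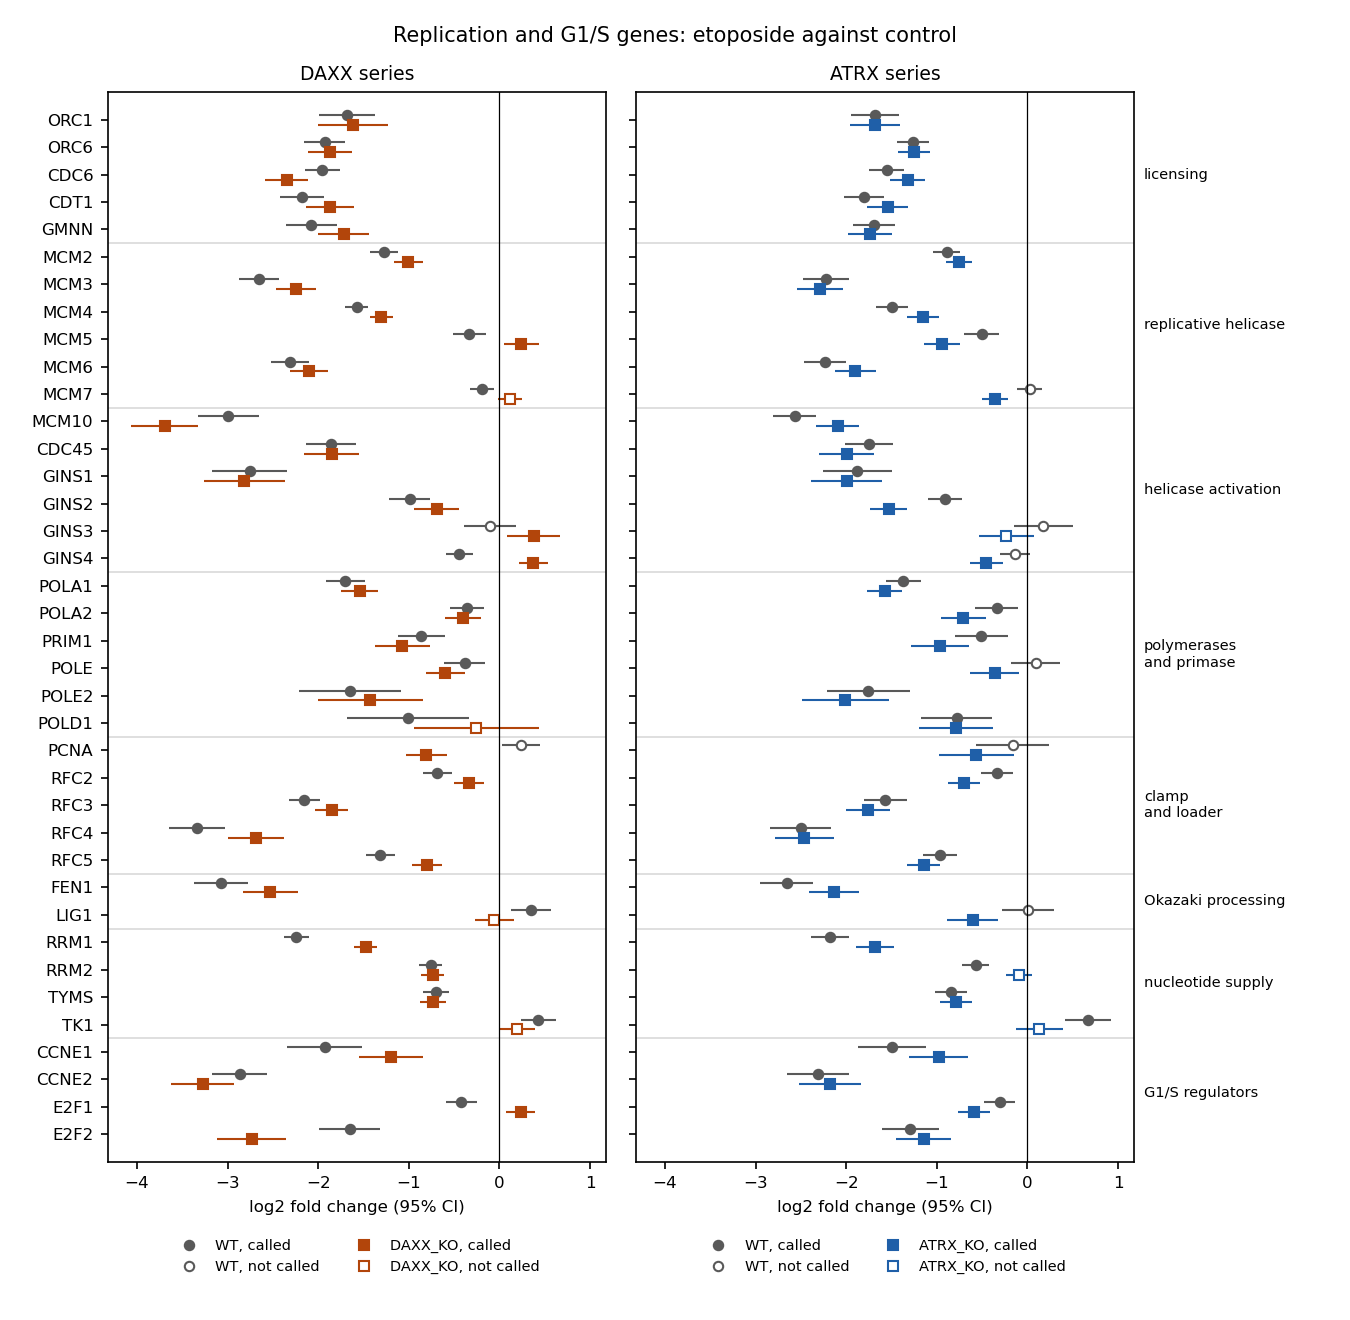
Log2 fold change of each gene between etoposide and control, with 95% confidence intervals, in WT (grey circles) and in the knockout (coloured squares) of the DAXX series (left) and the ATRX series (right). Filled points passed an adjusted p of 0.05. RFC4, FEN1 and MCM10 lie farthest left in WT, and TK1 lies right of 0 in WT of both series.

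The interaction asked whether the response to etoposide differed between knockout and WT. In the DAXX series 8 of 38 genes were called higher (a response less negative or more positive in DAXX_KO), 2 lower and 28 neither, against 8.38% higher and 5.79% lower of all genes tested. With library totals alone 5 were higher and 5 lower. GINS4 had the highest value, 0.82 ± 0.11 (edgeR adjusted p = 3.27e-05). With etoposide it was at 81.4, 78.7 and 83.3 CPM in WT and 52.8, 53.4 and 49.8 CPM in DAXX_KO, a fall from its control level in WT and a rise in the knockout. RRM1, the large subunit of ribonucleotide reductase, was at 421, 443 and 448 CPM in WT control and 90.3, 96.5 and 90.5 CPM with etoposide, and at 398, 399 and 366 and 135, 144 and 138 CPM in DAXX_KO (0.76 ± 0.088, edgeR adjusted p = 9.79e-06). E2F1 (0.66), MCM5 (0.58), RFC5 (0.51), RFC2 (0.35), MCM7 (0.31) and MCM4 (0.27) were the others called higher.

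The responses of E2F2 and PCNA were lower in DAXX_KO than in WT. E2F2, a relative of E2F1, was at 22.7, 24.6 and 26.4 CPM in WT control, 8.66, 9.16 and 5.40 CPM in WT with etoposide, 23.99, 27.05 and 21.5 CPM in DAXX_KO control and 3.41, 3.21 and 4.26 CPM in DAXX_KO with etoposide (-1.08 ± 0.25, edgeR adjusted p = 0.00657). PCNA was at 118, 96.9 and 94.3 CPM and 120.3, 118 and 126 CPM in WT and at 78.2, 87.9 and 85.2 CPM and 46.2, 56.7 and 40.4 CPM in DAXX_KO (-1.04 ± 0.15, edgeR adjusted p = 7.68e-05). The knockout and WT libraries with etoposide did not overlap for either gene.

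In the ATRX series 2 genes were called higher and 6 lower in the interaction, against 8.36% higher and 7.64% lower of all genes tested. Scaling by DESeq2's size factors or by library totals alone gave 4 higher and 4 lower. The 2 higher were the ribonucleotide reductase subunits. RRM1 was at 475, 493 and 506 CPM and 103, 114 and 108 CPM in WT and 574, 612 and 536 CPM and 146, 192 and 198 CPM in ATRX_KO (0.49 ± 0.14, edgeR adjusted p = 0.0221). RRM2 was at 757, 777 and 749.5 CPM and 518, 533 and 485 CPM in WT and 443, 483 and 494 CPM and 457, 459 and 419 CPM in ATRX_KO (0.48 ± 0.10, edgeR adjusted p = 0.00324). RRM2 thus fell in WT, and in ATRX_KO, where it started lower, its change of -0.09 was not called.

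GINS2, a GINS subunit, had the lowest interaction in the ATRX series, at 58.2, 56.96 and 59.9 CPM and 30.3, 30.9 and 31.9 CPM in WT and 37.5, 38.8 and 32.02 CPM and 11.8, 12.3 and 13.3 CPM in ATRX_KO (-0.62 ± 0.13, edgeR adjusted p = 0.00428). LIG1 was at 26.1, 22.00 and 24.4 CPM in ATRX_KO control and 17.1, 14.4 and 16.3 CPM with etoposide (-0.61 ± 0.19, edgeR adjusted p = 0.0372). TK1, higher with etoposide in WT, was at 134, 126 and 145 CPM and 180.4, 152 and 112 CPM in ATRX_KO (-0.54 ± 0.17, edgeR adjusted p = 0.0406). The etoposide libraries of ATRX_KO lay below those of WT for all 3 of these genes. MCM5 (-0.44), MCM7 (-0.38) and RFC2 (-0.36) were the others called lower.

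MCM5, MCM7 and RFC2 were called in opposite directions in the 2 interactions, higher in DAXX_KO and lower in ATRX_KO. Several interaction calls were lost when 1 library was left out. In the DAXX series the calls of MCM4, MCM7 and RFC2 were lost without 9, 6 and 9 of the 12 libraries taken out 1 at a time (edgeR adjusted p up to 0.0828, 0.0692 and 0.107). In the ATRX series the calls of RFC2, TK1, MCM5, LIG1, RRM1 and MCM7 were lost without 9, 9, 8, 7, 3 and 1 of the 12 (edgeR adjusted p up to 0.159, 0.112, 0.109, 0.138, 0.0595 and 0.0513), and those of GINS2 and RRM2 held in each of the 12.

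**Figure D4:**
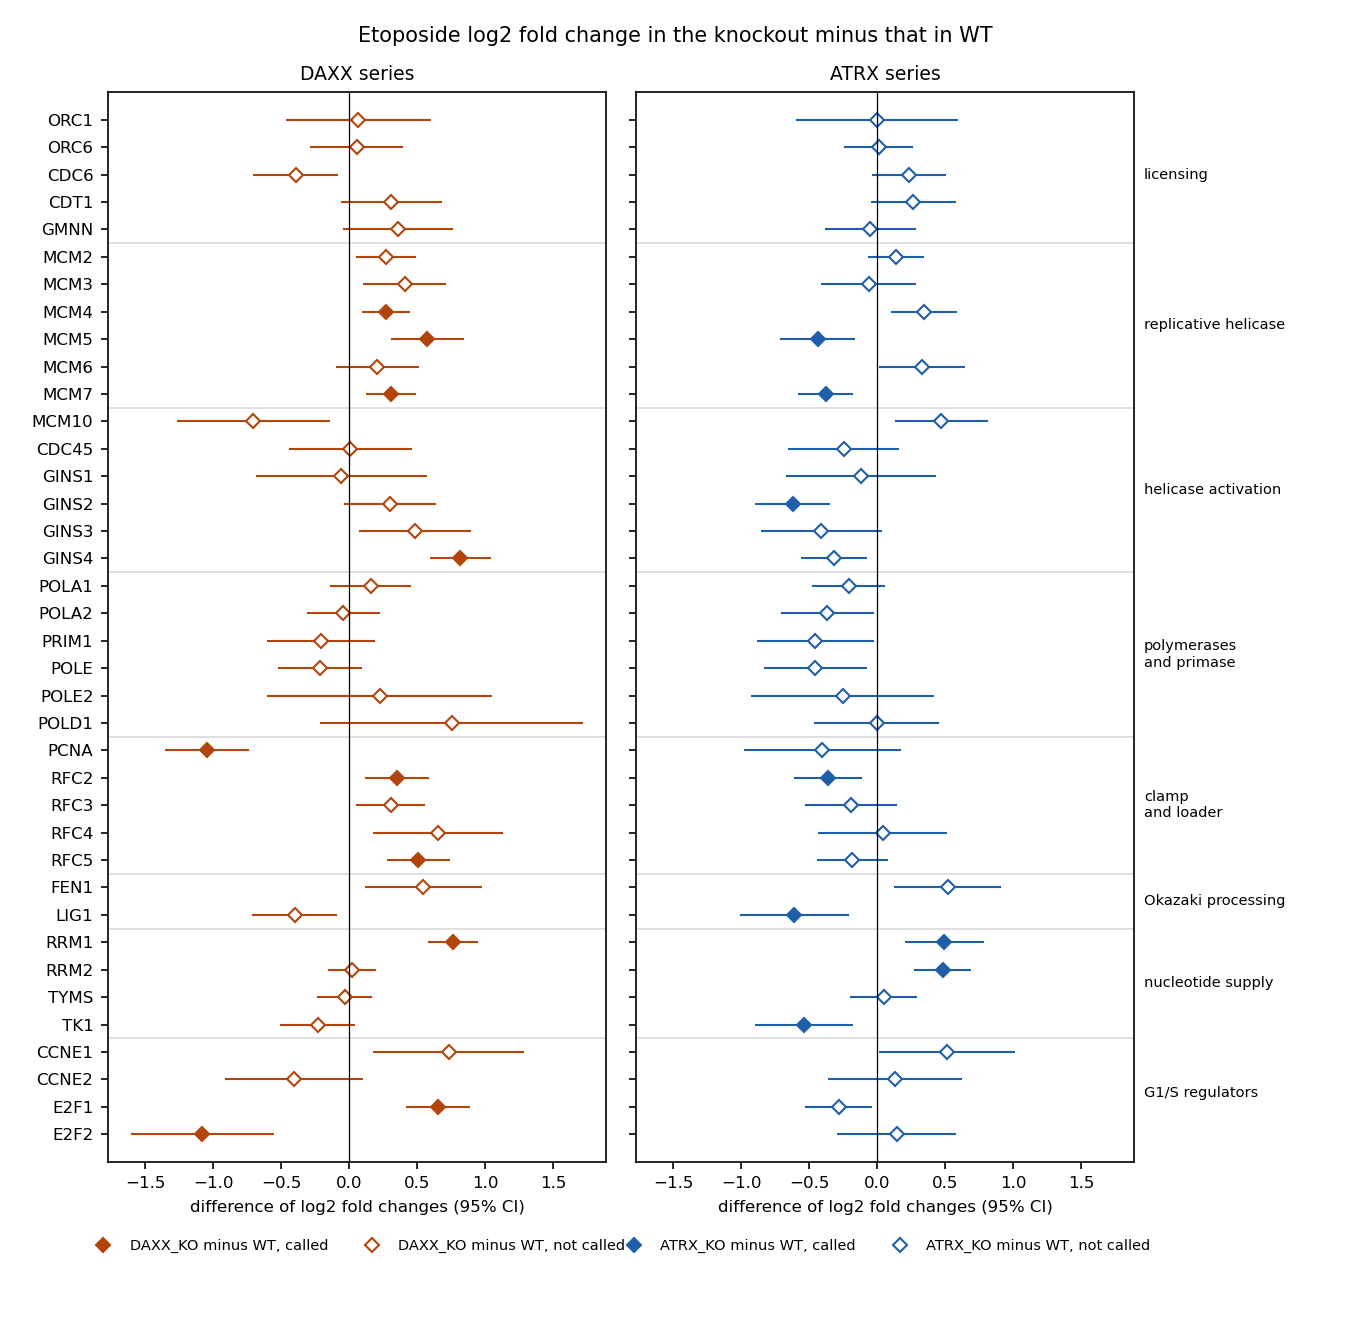
Difference between the log2 fold change with etoposide in the knockout and that in WT, with 95% confidence intervals, for the DAXX series (left) and the ATRX series (right). Filled diamonds passed an adjusted p of 0.05, which 10 genes did on the left and 8 on the right, and points right of 0 are genes that fell less, or rose more, in the knockout. Of all genes tested, 8.38% were called higher and 5.79% lower on the left, and 8.36% and 7.64% on the right.

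After etoposide the levels in knockout and WT could also be compared directly. In DAXX_KO 21 genes were lower than in treated WT and 4 higher, against 25.2% and 27.9% of all genes tested, and in ATRX_KO 22 were lower and 3 higher, against 22.9% and 23.0%. With library totals alone 15 were lower and 4 higher in ATRX_KO. CCNE1 was higher in both, at 1.05 in DAXX_KO and 1.30 in ATRX_KO. With etoposide it was at 2.38, 3.93 and 2.70 CPM in WT and 6.70, 5.70 and 6.49 CPM in DAXX_KO, and at 4.62, 5.83 and 3.11 CPM in WT and 11.6, 11.1 and 11.01 CPM in ATRX_KO, so that neither pair overlapped. RRM1 was also higher in both (0.59 and 0.72), E2F1 (1.197) and MCM7 (0.21) in DAXX_KO, and FEN1 (0.79) in ATRX_KO. The lowest values were CDC6 (-1.77), PCNA (-1.34) and ORC1 (-1.30) in DAXX_KO and GINS4 (-1.91), MCM5 (-1.49) and CDC45 (-1.44) in ATRX_KO. In ATRX_KO the calls of POLD1, GINS1, ORC1, CDT1, POLE, RRM2 and LIG1, all lower, were lost without 11, 7, 5, 4, 4, 3 and 2 of the 12 libraries taken out 1 at a time (edgeR adjusted p up to 0.184, 0.194, 0.123, 0.0565, 0.109, 0.163 and 0.169), and in DAXX_KO those of MCM4, MCM3 and CDT1 without 5, 3 and 1 (up to 0.0959, 0.135 and 0.119). The 2 knockout effects differed after etoposide for 19 genes, 10 higher and 9 lower in DAXX_KO relative to ATRX_KO, against 17.7% and 16.8% of all genes tested. E2F1 had the highest of these differences (1.81 ± 0.11) and CDC6 the lowest (-1.67 ± 0.15).

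Other genes of the pathway, on a list of 43 replication genes outside the 38, were counted in the same way. In control cells 28 of the 43 were lower and 5 higher in DAXX_KO, against 26.6% and 26.7% of all genes tested. In ATRX_KO 16 were lower, 3 were higher and 24 did not pass the test, against 21.0% lower and 20.8% higher of all. The lowest in DAXX_KO were MTBP (-1.68), which helps origins fire, and TIPIN (-1.34), part of the fork protection complex, and the highest were RRM2B (1.05) and RECQL4 (0.47). In ATRX_KO the lowest were CHAF1B (-0.87), a histone chaperone subunit, and RPA1 (-0.86), which coats single-stranded DNA, and the highest were RRM2B (0.64) and TIMELESS (0.39). With etoposide in WT, 35 of the 43 were lower and 4 higher in the DAXX series, against 30.6% and 29.6% of all genes tested, and 36 were lower and 3 higher in WT of the other, against 29.8% and 31.7%. Among treated cells, 15 were lower and 10 higher in DAXX_KO than in WT, and 12 were lower and 8 higher in ATRX_KO, against 25.2% and 27.9% and 22.9% and 23.0% of all genes tested. For etoposide against control in WT, TICRR (-3.20 and -2.82) and CDCA7 (-3.32 and -2.81) had the lowest values in both series. RRM2B, the ribonucleotide reductase subunit induced by p53, had the highest, at 20.9, 21.8 and 19.2 CPM in WT control and 77.8, 71.7 and 78.5 CPM with etoposide in the DAXX series, followed by POLD4 (0.53) there and by POLD2 (0.61) in the ATRX series. RRM2B therefore moved against RRM1 and RRM2 in the same cells.

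A second list held other G1/S regulators, of which 30 passed the filter in the DAXX series and 29 passed it in the other. In control cells 9 were lower and 7 higher in DAXX_KO, shares near the 26.6% and 26.7% of all genes tested, and 12 were lower and 5 higher in ATRX_KO, against 21.0% and 20.8% of all. CCND1, the cyclin that with CDK4 and CDK6 inactivates RB, had the lowest value in DAXX_KO, at 469, 459 and 479.9 CPM in WT and 175, 171 and 182 CPM in the knockout (-1.41 ± 0.062, edgeR adjusted p = 7.68e-13). TFDP1, the partner of the E2F factors, followed at -1.06, and CCND2 (2.70) and MYBL2 (1.15) had the highest values. In ATRX_KO the lowest were CDK6 (-1.71) and FBXO5 (-1.10), an inhibitor of the anaphase-promoting complex, and the highest were TFDP2 (0.80) and E2F6 (0.49). With etoposide in WT 23 were lower and 4 higher in each series, against the 30.6% and 29.6% and the 29.8% and 31.7% of all genes tested. CCNA2, the cyclin of S phase, fell most, from 56.00, 50.1 and 55.4 CPM to 2.51, 2.38 and 2.30 CPM in the DAXX series and with a log2 fold change of -4.15 in the ATRX series, and FBXO5 came next (-3.85 and -3.18). CDKN1A (5.24 and 5.25) and FBXW7 (1.77 and 2.38), which targets cyclin E for destruction, had the highest values. CDKN1A rose less in the knockouts, by 4.77 in DAXX_KO and 3.70 in ATRX_KO, with interactions of -0.47 ± 0.084 and -1.55 ± 0.095 (edgeR adjusted p = 8.56e-04 and edgeR adjusted p = 7.48e-08).

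For 11 of the 38 genes another gene of the table overlapped the last 1 kb, where 3′ counts fall, and the sources used here do not say whether counting used strand. These were GINS1, GINS2, GINS4, PRIM1, RFC4, RFC5, FEN1, RRM1, TYMS, CCNE2 and POLD1, and their values could include reads of the overlapping gene. For PRIM1, FEN1 and POLD1 the overlapping gene lies on the same strand, so counting by strand would not tell them apart.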

How the data were processed

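RNA was sequenced from 24 libraries of 3′ ends (QuantSeq, single-end NextSeq reads). The authors aligned reads with STAR to hg19 and made the deposited expected counts per Ensembl gene with RSEM (version 1.2.3 in the submitters' notes), stored as whole numbers. How strand was used in counting is not given in the sources used here. Of 57736 genes, 55501 identifiers matched GENCODE release 44 lifted to GRCh37. Reads of 1 library hold no molecular identifiers here, so counts carry counting error and amplification together, and 3 counts of a library were 0.217 to 0.405 CPM.

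Groups followed the titles. An edgeR 4.0.16 quasi-likelihood model was fitted to the 12 libraries of a series (R 4.3.3, limma 3.58.1) with 4 groups, TMM scaling (factors 0.939 to 1.10) and filterByExpr (minimum count 10, minimum total 15), which kept 15247 genes (DAXX series) and 16371 genes (ATRX series). Differences between the knockout effects were fitted over all 24 libraries (16674 genes). The p-values were adjusted by Benjamini-Hochberg over all genes tested, and calls used 0.05. Standard errors are the log2 fold change divided by the root of F. No 2 libraries of a group agreed within sampling noise (chi-square per degree of freedom from 2.16 to 17.1). Genes with values in every library were those with the 3 lowest and 2 highest values among the calls of the knockout, WT etoposide and interaction comparisons, and those called in opposite directions in the knockouts. Other values were named by role or after they were seen. The members and lists were chosen with earlier results of these data known. The alternatives were DESeq2 1.42.0, other scalings and filters, other sets of libraries, a replicate block, each library left out and centring on neighbours. Only the edgeR comparison of knockout with WT in control cells was tested on simulated counts, in each series. Figures used Python 3.11.15 and matplotlib 3.10.9.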

Additional observations from a re-analysis of the deposited data

Results flagged for a closer look

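The values below are differences between effects, on the log2 scale, that passed edgeR's test of the difference itself at an adjusted p under 0.05. Each group held 3 libraries, so no library was tested as an outlier of its group.

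The response to etoposide differed between DAXX_KO and WT for 10 genes, against 8.38% higher and 5.79% lower of all genes tested. It was higher in DAXX_KO for GINS4 (0.82), RRM1 (0.76), E2F1 (0.66), MCM5 (0.58), RFC5 (0.51), RFC2 (0.35), MCM7 (0.31) and MCM4 (0.27), and lower for E2F2 (-1.08) and PCNA (-1.04). Between ATRX_KO and WT it differed for 8 genes, higher in ATRX_KO for RRM1 (0.49) and RRM2 (0.48), and lower for GINS2 (-0.62), LIG1 (-0.61), TK1 (-0.54), MCM5 (-0.44), MCM7 (-0.38) and RFC2 (-0.36). Of all genes tested, 8.36% were called higher and 7.64% lower in that comparison.

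The knockout effect in control cells differed between the lines for 13 genes, against 17.2% lower and 17.0% higher of all genes tested. It was lower in DAXX_KO than in ATRX_KO for GINS3 (-1.14), CDC6 (-1.02), ORC1 (-0.96), FEN1 (-0.91), MCM3 (-0.78), RFC4 (-0.69), RRM2 (-0.57), MCM2 (-0.56), RFC5 (-0.43), RFC3 (-0.42) and RRM1 (-0.40), and higher for E2F1 (0.89) and CDC45 (0.57). With etoposide the knockout effects differed for 19 genes, against 16.8% lower and 17.7% higher of all genes tested. They were lower in DAXX_KO for CDC6 (-1.67), E2F2 (-1.10), RRM2 (-1.05), ORC1 (-0.92), CCNE2 (-0.91), FEN1 (-0.90), MCM10 (-0.87), MCM2 (-0.46) and MCM4 (-0.25), and higher for E2F1 (1.81), GINS4 (1.24), MCM5 (0.89), CDC45 (0.80), GINS2 (0.66), POLA2 (0.62), MCM7 (0.60), GMNN (0.56), POLE (0.51) and RFC2 (0.43). The call of MCM4 after etoposide was lost without any of 20 of the 24 libraries (edgeR adjusted p up to 0.123), that of POLE without 7 (up to 0.0874), that of GMNN without 4 (up to 0.159) and that of CCNE2 without 3 (up to 0.0690).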

How the results depend on the processing

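Of 292 gene and comparison pairs called among the 38 genes, 8 were not called by DESeq2, 4 with DESeq2's size factors in edgeR, 29 with scaling by library totals alone, 15 without a filter on low counts, 4 with at least 10 counts in every library, 7 with only the groups compared and 6 with all libraries in 1 model. The last 3 settings did not cover all 292. At least 10 counts left 37 genes in the DAXX series. The comparison of the 2 knockout effects was not among the pairs of the last 2 settings, and interactions were not run with only the groups compared. Directions reversed for RRM1 in DAXX_KO control with library totals alone (0.011), and, relative to chromosomal neighbours, for MCM5 in DAXX_KO after etoposide (0.12) and MCM4 in ATRX_KO control (0.00081). Centring on neighbours also moved 124 of 260 pairs by more than the spread between libraries, without turning their direction. Library totals alone moved the median of all genes in DAXX_KO control to 0.20, and the median of the 38 genes to -0.28 there, -0.27 in DAXX_KO after etoposide, -1.36 with etoposide in DAXX_KO and 0.14 in the DAXX interaction. With at least 10 counts in every library, which leaves fewer genes tested, the medians with etoposide were -1.16 in DAXX_KO and -1.50 in WT of the DAXX series. Relative to neighbours, the median was -0.56 in DAXX_KO control and -1.47 with etoposide in WT of the DAXX series.

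Leaving out 1 library at a time lost at least 1 of the calls for 40 of the 292 pairs. The number of the 38 genes called in the ATRX interaction then ran from 4 to 11 (8 with all libraries) and in the DAXX interaction from 7 to 11 (10 with all). Medians ran from -0.37 to -0.27 in DAXX_KO after etoposide, from -1.62 to -1.44 with etoposide in WT of the DAXX series and from 0.17 to 0.29 in the DAXX interaction. In the comparison of the knockout effects after etoposide the median ran from -0.039 to 0.14. Other causes of these changes were not tested.

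The replicate numbers are shared by the groups, and no source says that they mark a shared day or culture. Same-numbered libraries did not deviate together (correlations from -0.33 to 0.083), so the numbers were not taken to pair the libraries. With the replicate number as a block, 30 of the 38 genes were called in DAXX_KO control and 23 in ATRX_KO control. Of all genes tested, 7951 of 15247 and 6485 of 16371 were called there. With etoposide in WT of the DAXX and ATRX series 36 and 32 were called (9032 and 9804 of all genes). In DAXX_KO and ATRX_KO etoposide gave 34 and 35 calls (8162 and 7860 of all genes). In the knockouts against WT after etoposide 24 and 23 were called (7870 and 7220 of all genes). The DAXX and ATRX interactions called 8 and 6 (1882 and 2246 of all genes). Between the knockout effects 13 and 18 were called in control and after etoposide, against 5379 and 5452 of all 16674 genes.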
